A study of Homo sapiens with 6 samples.

Results

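The 8 genes described here are long non-coding RNAs (lncRNAs) that carry a common name: MALAT1, NEAT1, NORAD, TUG1, OIP5-AS1, KCNQ1OT1, CYTOR and MIR22HG. They were taken by name and matched through their Ensembl identifiers, and all 8 were among the 63677 identifiers of the count table and had enough counts to be tested. The cells were UWB1.289, a human ovarian cancer line that lacks BRCA1 and whose genotype the sample labels give as WT. Both groups came from this 1 line: 3 samples received Olaparib, an inhibitor of PARP1, for 24 h, and 3 samples received the vehicle DMSO. The dose was 4 µM by the labels and 10 µM by the series' design text. RNA with a poly(A) tail was sequenced from stranded libraries, and reads were counted per gene. The comparison asked how the transcriptome of these cells responds to PARP inhibition.

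Each library held between 35360458 and 39640775 counts, and the 8 lncRNAs together took 0.181% to 0.203% of them. Values are normalized counts, scaled to library size by the TMM method, and a log2 fold change is Olaparib relative to DMSO. Differences were tested with the quasi-likelihood method of edgeR across all genes, and every adjusted p comes from that fit, by Benjamini-Hochberg, unless another tool is named. The epithelial markers, PAX8 among them, were abundant, at 480419 to 512306 normalized counts in sum for the 9 of 10 that could be tested, whereas WT1 had 8 counts over all 6 samples. PAX8 itself was higher after Olaparib (log2 fold change 0.10, adjusted p = 0.0399), a call that passed in 1 of the 6 fits that left out 1 sample. It was the 1 of the 9 that was called. The log2 fold change was positive in 7 of the 9, with a median of 0.075. At an unadjusted p under 0.05 in edgeR, 6 were higher and 0 lower. The share of all genes at that unadjusted threshold is not given here. Counts at it, here and below, therefore describe the lists and have no background beside them. Of the 11 markers of blood, endothelium and fibroblasts, CD3E, HBB, PECAM1, PDGFRB and DCN had between 0 and 6 counts each in total, and 6 could be tested. PTPRC and CD14 of blood summed to 93.2 to 133 normalized counts per library, VWF and CDH5 of endothelium to 1564 to 1723, nearly all of it CDH5, and COL1A1 and COL1A2 of fibroblasts to 1642 to 1844. Of these 6, VWF rose after Olaparib, from 41.8 ± 1.96 to 67.4 ± 3.17 normalized counts (SD, n = 3 each, log2 fold change 0.68, adjusted p = 0.0106). Its adjusted p was 0.0510 without DMSO replicate 1 and 0.0710 in DESeq2. The part of such markers in the values below was not tested. In these bulk samples, fewer cells that express a gene and less RNA of it per cell cannot be told apart.

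LncRNAs are transcribed and processed like messenger RNAs but act as RNA. MALAT1 and NEAT1 lie side by side and build up in the nucleus, MALAT1 in nuclear speckles that hold splicing factors, and NEAT1 as the scaffold of paraspeckles, bodies of RNA-binding proteins that form in many stressed cells. NORAD is a mostly cytoplasmic RNA that is induced by DNA damage in some cells and binds the PUMILIO proteins, which repress messenger RNAs. TUG1 is a widely expressed RNA of nucleus and cytoplasm, OIP5-AS1 (also called Cyrano) pairs with the microRNA miR-7, KCNQ1OT1 silences an imprinted gene cluster in cis, CYTOR is linked to cell growth in cancers, and MIR22HG is the host transcript of the microRNA miR-22.

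Several of these RNAs carry short sequences by which they are known. The 3′ ends of the long form of NEAT1 and of MALAT1 are shown because neither ends in an added poly(A) tail. They are cut by RNase P and are protected by a triple helix between U-rich stretches and an A-rich tail, and the library step selected for poly(A). Capitals mark a word of 16 bases and a final word of 11 bases that both ends share. The NEAT1 segment is the last 90 bases of the long form at chr11:65445451-65445540 and the MALAT1 segment lies at chr11:65506027-65506116, both on the plus strand of GRCh38.
NEAT1 long form, 3′ end: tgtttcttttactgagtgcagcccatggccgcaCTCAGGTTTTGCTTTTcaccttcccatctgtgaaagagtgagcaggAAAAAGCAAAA
MALAT1, 3′ end of the mature RNA: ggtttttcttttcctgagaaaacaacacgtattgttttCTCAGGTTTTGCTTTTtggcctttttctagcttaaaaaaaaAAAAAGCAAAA

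The tail of MALAT1 includes a run of 13 A bases encoded in the genome. The short form of NEAT1 ends 3716 bases from the start of the long form, at 16.3% of the long form's 22743 bases, and is polyadenylated. Its last 60 bases, at chr11:65426454-65426513 on the plus strand, are shown with the polyadenylation signal in capitals, because this is the form that poly(A) selection is designed to keep.
NEAT1 short form, 3′ end: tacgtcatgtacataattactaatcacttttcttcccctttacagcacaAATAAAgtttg

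Counts per gene do not separate the forms, so every NEAT1 value below is for the gene as a whole. NORAD is marked by repeats of the PUMILIO recognition word, searched as TGTANATA on the transcript strand. The word occurred 15 times in the 5401 bases of NORAD, and 3 times as a pair whose starts lay 9 bases apart. These pairs are at chr20:36049496-36049525, chr20:36048299-36048328 and chr20:36047663-36047692 on the minus strand, with the words in capitals.
NORAD pair 1: tatctgTGTATATAgTGTACATAaaggaca
NORAD pair 2: ctatacTGTATATAtTGTATATAtaacgga
NORAD pair 3: gtgctgTGTATATAgTGTATATAagcggac

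Among 2103 genes whose longest transcript is 5000 to 6000 bases long, 44.7% held at least 1 such word and the median was 0. Counting NORAD, 3 genes reached 15 words, and the highest count in another gene was 16. Per kilobase, NORAD had 2.78 words, and the 7 other lncRNAs had between 0 and 0.268. OIP5-AS1 holds a site for miR-7 at chr15:41300574-41300599 on the plus strand. Capitals mark the bases that can pair with the microRNA, its first base left aside. On the 3′ side of its seed, 15 of 16 bases of the microRNA could pair, with a bulge of 2 bases.
OIP5-AS1 site: AACAACAAAATCACcAatGTCTTCCa
hsa-miR-7-5p: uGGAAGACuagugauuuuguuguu

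Of the 72 annotated transcripts of OIP5-AS1, 31 held a match to the miR-7 seed. MIR22HG carries both mature arms of miR-22 on the minus strand, miR-22-3p at chr17:1713914-1713935 and miR-22-5p at chr17:1713952-1713973, shown with their seeds, bases 2 to 8, in capitals. The small RNAs themselves were not measured here, only the host transcript.
hsa-miR-22-3p: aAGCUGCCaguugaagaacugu
hsa-miR-22-5p: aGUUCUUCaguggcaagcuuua

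Of the 8 lncRNAs, NEAT1 fell after Olaparib, and the other 7 did not pass the test. NEAT1 fell by 22.7%, the change in MIR22HG was smaller and did not pass after adjustment, and 6 lncRNAs had overlapping groups. At the threshold of 0.05 for the adjusted p of edgeR, 1 of 8 was called, where 3.36% of all 21729 genes tested, 5.88% of the 6787 genes averaging at least 1000 counts, 1.25% of the 3746 lncRNA genes and 8.2% of the 451 lncRNA genes averaging at least 100 counts were called. The groups did not overlap for 2 of 8, against 19.3% of all genes, 26.3% of genes averaging at least 1000 counts and 26.4% of lncRNA genes averaging at least 100. The log2 fold change was positive in 4 and negative in 4 of the 8, with a median of -0.014, and the median over all genes tested was -0.0042. The sign of MALAT1 turned under upper quartile scaling.

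**Figure D1:**
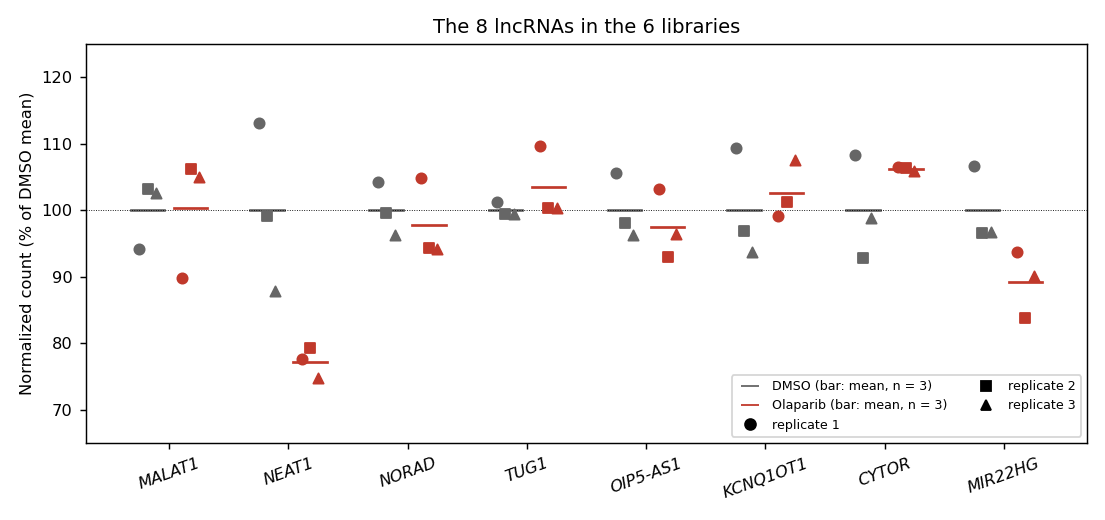
Normalized count of each of the 8 lncRNAs as a percentage of its DMSO mean, with 1 point for each of the 3 DMSO (grey) and 3 Olaparib (red) samples, symbols for the replicate number and a bar at the group mean. The 3 Olaparib samples of NEAT1 (74.8% to 79.3%) and of MIR22HG (83.7% to 93.7%) lie below all 3 DMSO samples, whereas the groups of the other 6 overlap.

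NEAT1 (ENSG00000245532, chr11:65422774-65445540, plus strand) had 12117, 10618 and 9406 normalized counts in DMSO replicates 1, 2 and 3. After Olaparib it had 8319, 8493 and 8017 normalized counts. The groups did not overlap, DMSO replicate 1 was the highest sample, and the DMSO samples were farther apart than the Olaparib samples. The means were 10714 ± 1358 (SD, n = 3) after DMSO and 8276 ± 241 (SD, n = 3) after Olaparib. Its log2 fold change was -0.37 (standard error, SE, 0.047, 95% interval -0.47 to -0.28, adjusted p = 2.83e-06 in the edgeR fit). The exact two-sided permutation test gave p = 0.1, the smallest that 3 samples against 3 allow.

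NEAT1 was among the abundant genes that fell most. Its fold change was the fourth lowest of 6787 genes averaging at least 1000 counts, and the sixth lowest of 451 lncRNA genes averaging at least 100 counts. It also varied more than most: its within-group SD on the log2 scale was 0.133, against a median of 0.0422 over those 6787 genes, of which 17 had a higher SD. DMSO replicate 1 was 21.0% above the mean of the other DMSO samples, and without it the log2 fold change was -0.27 with an adjusted p of 0.000287 in the same edgeR test. That library also stood apart over genes at large. Its chi-square per degree of freedom was 4.02 and 4.11 against DMSO replicates 2 and 3, and 1.81 between those. It was the highest of the 6 samples for OIP5-AS1, KCNQ1OT1, CYTOR and MIR22HG as well, and the lowest DMSO sample for MALAT1. Its part in the spread of NEAT1 was not tested. When dispersion was estimated robustly, so that a gene with an outlying spread keeps more of its own variance, the adjusted p of NEAT1 in edgeR was 0.224, and the Wald test of DESeq2 gave 0.0236.

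The fall was also read against the other lncRNAs within each library. The ratio of NEAT1 to NORAD was 1.26, 1.16 and 1.06 in DMSO replicates 1 to 3 and 0.863, 0.980 and 0.926 in Olaparib replicates 1 to 3. These groups did not overlap (exact two-sided permutation p = 0.1, the smallest possible). The ratio of NEAT1 to MALAT1, its neighbour, was 0.275, 0.220 and 0.196 after DMSO and 0.198, 0.171 and 0.163 after Olaparib, so that 1 Olaparib sample lay above the lowest DMSO sample (exact two-sided permutation p = 0.2).

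**Figure D2:**
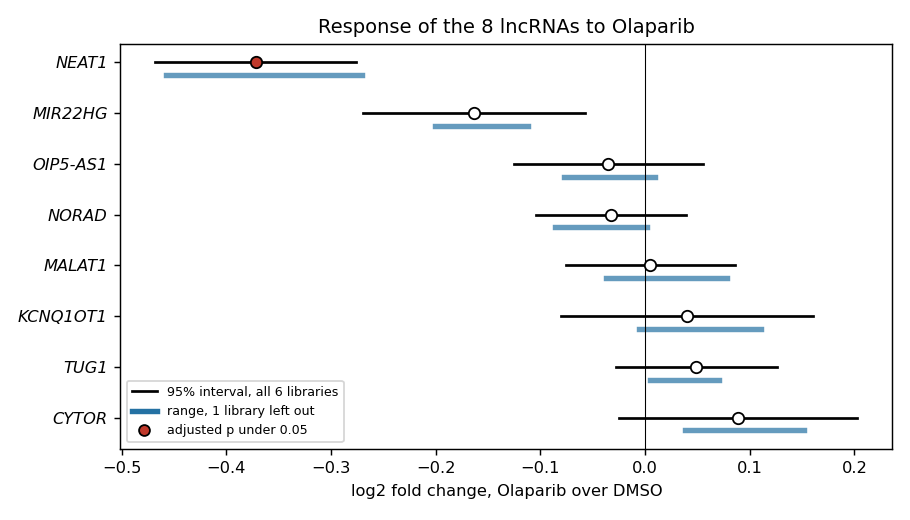
Log2 fold change of each lncRNA after Olaparib relative to DMSO, with its 95% interval from edgeR (black line, n = 3 per group) and the range of values when 1 sample is left out (blue line). A red point has an adjusted p under 0.05. The interval of NEAT1 spans -0.47 to -0.28 and every value with a sample left out stays between -0.46 and -0.27, whereas the intervals of MALAT1, NORAD, TUG1, OIP5-AS1, KCNQ1OT1 and CYTOR include 0.

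MIR22HG (ENSG00000186594, chr17:1711447-1717174, minus strand) had 915, 828 and 830 normalized counts after DMSO and 804, 718 and 772 after Olaparib. All 3 Olaparib samples lay below all 3 DMSO samples, the highest Olaparib sample being replicate 1. The means were 857 ± 49.9 (SD, n = 3) and 765 ± 43.3 (SD, n = 3). The log2 fold change of -0.16 (SE 0.052, 95% interval -0.27 to -0.058) had an adjusted p of 0.0814 in the edgeR fit. The adjusted p was 0.0311 without Olaparib replicate 1, and from 0.0311 to 0.459 over the 6 fits that left out 1 sample. MIR22HG is a gene with few shared sequences, since 0.918% of its words of 50 bases occurred in a transcript of another gene, namely MIR22 itself.

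MALAT1 (ENSG00000251562, chr11:65497640-65508073, plus strand) was the most abundant of the 8 and ranked 51 by mean count among all genes tested. It had 43995, 48259 and 47945 normalized counts after DMSO and 41990, 49642 and 49041 after Olaparib. Replicate 1 was the lowest sample in each group, and the groups overlapped. This gave a log2 fold change of 0.0048 (SE 0.040, 95% interval -0.076 to 0.086, adjusted p = 0.978 in the same edgeR test), and its sign changed with the sample left out. An antisense gene, TALAM1, covers 77.8% of the exon bases of MALAT1 and was not among the identifiers of the table. Another antisense gene there, ENSG00000270117, had 10 counts over all 6 samples. Since the strand setting of the counting is not given in the sources used here, reads of MALAT1 and of transcripts opposite to it cannot be told apart.

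NORAD (ENSG00000260032, chr20:36045618-36051018, minus strand) had 9584, 9151 and 8851 normalized counts after DMSO and 9641, 8669 and 8657 after Olaparib. The groups overlapped, with the highest and the lowest sample both after Olaparib. The means were 9195 ± 368 and 8989 ± 564 (SD, n = 3 each). Its log2 fold change was -0.033 (95% interval -0.10 to 0.039, adjusted p = 0.745 in the same edgeR test). Of the words of 50 bases in NORAD, 22.5% also occur in OVCH1-AS1, which was listed at 0 counts in all 6 samples, so the way shared reads were assigned leaves the level of NORAD uncertain.

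TUG1 (ENSG00000253352, chr22:30969245-30979395, plus strand), which the annotation types as protein coding, had 3714, 3646 and 3646 normalized counts after DMSO and 4023, 3680 and 3680 after Olaparib. Olaparib replicate 1 stood above the other 5 samples, and 1 DMSO sample lay above the other Olaparib samples. In the edgeR fit the log2 fold change was 0.049 (95% interval -0.028 to 0.13, adjusted p = 0.607 in the same edgeR test).

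OIP5-AS1 (ENSG00000247556, chr15:41283958-41322392, plus strand) had 2326, 2159 and 2122 normalized counts after DMSO and 2274, 2046 and 2125 after Olaparib. Replicate 1 was the highest sample in each group and the groups overlapped. The log2 fold change was -0.035 (95% interval -0.13 to 0.055, adjusted p = 0.786 in the same edgeR test). OIP5, which lies on the opposite strand and overlaps 3.39% of its exon bases, encodes a centromere protein and showed a log2 difference of 0.061 (adjusted p = 0.642). The ratio of OIP5-AS1 to OIP5 was 3.39 ± 0.295 after DMSO and 3.16 ± 0.222 after Olaparib (SD, n = 3 each, exact two-sided permutation p = 0.3).

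KCNQ1OT1 (ENSG00000269821, chr11:2597308-2700003, minus strand) had 571, 506 and 489 normalized counts after DMSO and 517, 528 and 562 after Olaparib. The highest sample was DMSO replicate 1, and the groups overlapped. Its log2 fold change was 0.040 (95% interval -0.081 to 0.16, adjusted p = 0.827 in the same edgeR test). KCNQ1, the gene it runs antisense to, had 5 counts over all 6 samples and at most 2 in a sample, so no change could be detected in it at this depth.

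CYTOR (ENSG00000222041, chr2:87454781-87636740, plus strand) had 597, 512 and 545 normalized counts after DMSO and 587, 587 and 583 after Olaparib. The SD over 3 samples was 1.95 after Olaparib and 42.9 after DMSO, and the highest sample was DMSO replicate 1. This gave a log2 fold change of 0.089 (95% interval -0.025 to 0.20, adjusted p = 0.497 in the same edgeR test). CYTOR has a near copy, MIR4435-2HG, which holds 54.0% of its words of 50 bases, so the counts of both are uncertain. MIR4435-2HG had 1264 ± 46.9 normalized counts after DMSO and 1253 ± 19.8 after Olaparib (adjusted p = 0.939 in the same edgeR test). The ratio of CYTOR to MIR4435-2HG was 0.436 ± 0.0345 and 0.468 ± 0.00843 (SD, n = 3 each, exact two-sided permutation p = 0.3).

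Per length, measured as RPKM (reads per kilobase of annotated exon, scaled to library size), the 8 lncRNAs covered a wide range. MALAT1 was highest with a median of 123 RPKM (108 to 127 over the 6 samples), followed by NORAD with 44.5 (42.8 to 47.7). NEAT1 came next with 10.5 (9.41 to 14.2) and TUG1 with 9.69 (9.60 to 10.6), and these were the neighbours in this order whose ranges overlapped. MIR22HG had 7.01 (6.17 to 7.86), OIP5-AS1 2.56 (2.44 to 2.78), CYTOR 0.879 (0.769 to 0.897) and KCNQ1OT1 0.151 (0.141 to 0.165). By group, NEAT1 had 12.6 ± 1.59 RPKM after DMSO and 9.71 ± 0.283 after Olaparib (SD, n = 3 each) and TUG1 had 9.66 ± 0.103 and 9.99 ± 0.521. The order depends on the length given to a gene. With the longest transcript as the length, NEAT1 stayed at a median of 10.5 RPKM. TUG1, at 7474 instead of 10151 bases, rose to 13.2, OIP5-AS1 to 6.44 and CYTOR to 2.08. Most of the 22767 exon bases of NEAT1 belong to the long form alone, and its level was not computed with the short form as the length.

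**Figure D3:**
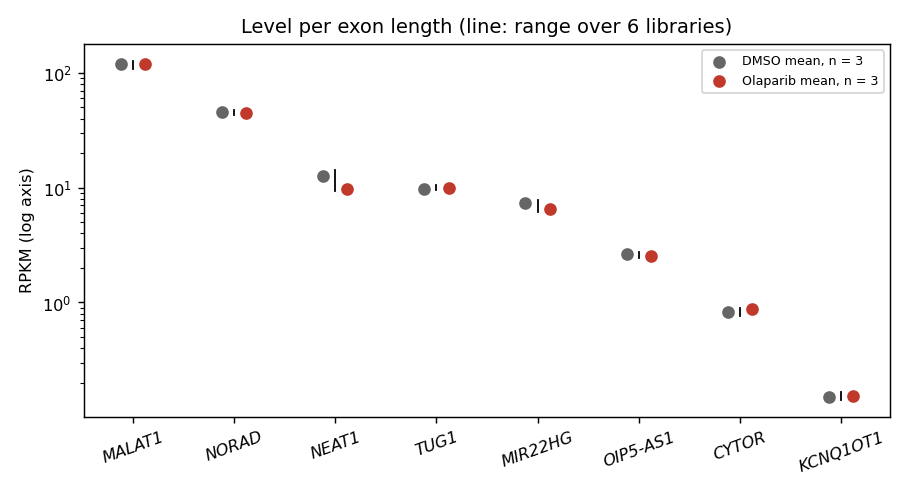
Level per length of the 8 lncRNAs (RPKM on a log axis), with the mean of the 3 DMSO (grey) and the 3 Olaparib (red) samples and a line for the range over all 6, ordered by median. MALAT1 (123) and NORAD (44.5) stand above the rest, NEAT1 (10.5) and TUG1 (9.69) overlap, and KCNQ1OT1 (0.151) is lowest.

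Across the 6 samples the lncRNAs varied in company. MALAT1 ran opposite to NORAD (Pearson r = -0.93), OIP5-AS1 (r = -0.90) and TUG1 (r = -0.83), and NORAD ran with OIP5-AS1 (r = 0.94). NEAT1 ran with MIR22HG (r = 0.83) and hardly with MALAT1 (r = -0.22). These values pool the 3 DMSO and the 3 Olaparib libraries, so a difference between the groups, as for NEAT1 and MIR22HG, enters r. The 6 libraries share a scaling and, for replicate 1 of each group, low MALAT1 with high OIP5-AS1. The values of r carry no test. Among 8880 genes averaging at least 500 counts, the patterns most like that of NEAT1 were those of LMNB1, which encodes lamin B1 of the nuclear lamina (r = 0.99 over 6 samples, log2 fold change -0.11, adjusted p = 0.0828 in the same edgeR test), and of TCF20 (r = 0.99). Those most like MIR22HG were GMFB (r = 1.00, log2 fold change -0.17, adjusted p = 0.0228) and ZMAT3, an RNA-binding target of p53 (r = 0.99, log2 fold change -0.21, adjusted p = 0.0128). Neither fall held in every fit that left out 1 sample, with adjusted p of GMFB of 0.196, 0.0556 and 0.190 without DMSO replicate 1, DMSO replicate 3 and Olaparib replicate 2, and of ZMAT3 of 0.205, 0.102 and 0.0558 without DMSO replicate 1, Olaparib replicate 2 and Olaparib replicate 3. For the other lncRNAs the closest patterns were PPIH and NUDT22 for MALAT1, CUL3 and CERT1 for NORAD, PGM2L1 and XPO4 for TUG1, CELF2 and WASHC4 for OIP5-AS1, POLH and SNHG16 for KCNQ1OT1, and ZNF268 and PRR13 for CYTOR. Their r lay between 0.97 and 1.00, and the highest r of each of the 8 lncRNAs was 0.99 or 1.00 after rounding. All these genes were picked for likeness over the same 6 samples. For those most like NEAT1 and MIR22HG, whose groups did not overlap, a lower level after Olaparib therefore follows from the choice and is not separate evidence.

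The genes on either side of NEAT1 were read in the same way. Of 23 genes tested within 250 kb on either side, 1 was higher and none was lower in the edgeR fit. Over all genes tested 3.36% were called in either direction, 2.15% higher and 1.21% lower. The absence of a lower gene among 23 is near that share. At an unadjusted p under 0.05, 6 of the 23 were higher and 0 lower. The shares of all genes above are for the adjusted p and are no measure for this count. The 20 averaging at least 100 counts had log2 fold changes between -0.070 and 0.15. FRMD8, which encodes a membrane protein that binds the iRhom pseudoproteases and which lies upstream of NEAT1, rose from 1471 ± 42.3 to 1631 ± 12.2 normalized counts (SD, n = 3 each, log2 fold change 0.15, adjusted p = 0.0401). Its adjusted p was 0.0583 in DESeq2, so that no neighbour passed with that tool, and in edgeR 0.124 and 0.207 without DMSO replicates 2 and 3 and 0.0950 and 0.166 without Olaparib replicates 2 and 3. MALAT1 begins 52099 bases beyond the end of NEAT1.

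**Figure D4:**
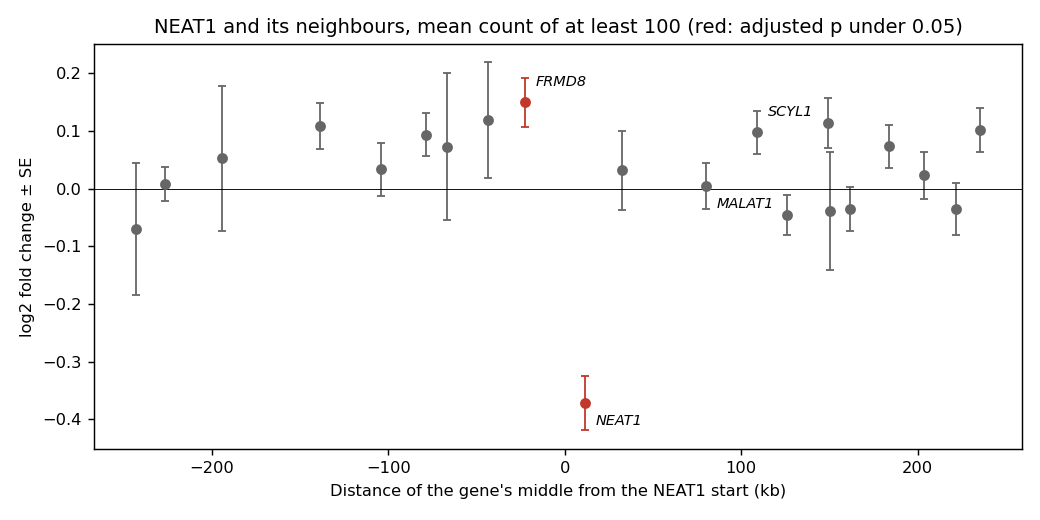
Log2 fold change (Olaparib relative to DMSO, bars are the standard error, n = 3 per group) of NEAT1 and of the genes within 250 kb of it that average at least 100 counts, plotted by the distance in kb from the NEAT1 start to the middle of each gene, with adjusted p under 0.05 in red. NEAT1 lies at -0.37, whereas the neighbours lie between -0.070 and 0.15.

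Around MIR22HG, 2 of 15 genes tested within 250 kb were lower and none was higher. Over all genes tested 3.36% were called in either direction, and 5.88% of genes averaging at least 1000 counts. Whether 2 of 15 differs from these shares was not tested. MYO1C, a class I myosin, fell by 0.11 in log2 units (SE 0.028, adjusted p = 0.0156 in the edgeR fit), with adjusted p of 0.157, 0.112 and 0.111 without DMSO replicate 2, DMSO replicate 3 and Olaparib replicate 3. The antisense gene PITPNA-AS1 fell by 0.42 (SE 0.083, adjusted p = 0.00186) and passed in all 6 fits that left out 1 sample. Both were picked out after their values were seen. No gene within 250 kb of NORAD, TUG1, OIP5-AS1, KCNQ1OT1 or CYTOR passed with edgeR, DESeq2 or limma voom, with 6, 9, 14, 9 and 1 genes tested, of which 0, 2, 2, 2 and 0 had an unadjusted p under 0.05.

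Of 22 paraspeckle protein genes tested, 2 were lower and none was higher (9.09% called, against 5.88% of genes averaging at least 1000 counts), and 5 were lower and 0 higher at an unadjusted p under 0.05. The log2 fold change was negative in 16 of the 22, with a median of -0.022. NONO and SFPQ, which paraspeckles need to form, had log2 fold changes of -0.025 (adjusted p = 0.754) and 0.0051 (adjusted p = 0.956), and PSPC1 one of 0.075 (adjusted p = 0.443). RBM14, a paraspeckle protein with a prion-like domain, fell from 2559 ± 98.0 to 2279 ± 61.0 normalized counts (SD, n = 3 each, log2 fold change -0.17, SE 0.041, adjusted p = 0.0132 in the edgeR fit). HNRNPH3, an hnRNP of the H family, fell by 0.11 in log2 units (SE 0.028, adjusted p = 0.0219). Neither call held in every fit that left out 1 sample. The adjusted p of RBM14 in edgeR was 0.157 and 0.0531 without DMSO replicates 2 and 3 and 0.0984 without Olaparib replicate 3. That of HNRNPH3 passed only without Olaparib replicate 1 and otherwise lay between 0.0664 and 0.181.

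Among 16 genes of nuclear speckle proteins and MALAT1 partners, 2 were lower and none was higher (12.5% called, against 5.88% of genes averaging at least 1000 counts). At an unadjusted p under 0.05, 4 were lower and 1 higher, and the median log2 fold change was -0.042. PNN, which encodes the speckle protein pinin, fell from 9834 ± 226 to 8997 ± 30.8 normalized counts (SD, n = 3 each, log2 fold change -0.13, adjusted p = 0.00701 in the edgeR fit), and its adjusted p was 0.0964 without DMSO replicate 2. SRSF2, a serine/arginine-rich splicing factor, fell by 0.10 in log2 units (adjusted p = 0.0468), a call that remained only when Olaparib replicate 1 was left out, with adjusted p from 0.138 to 0.219 in the other 5 fits.

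Of 12 genes for NORAD partners and PUMILIO proteins, 1 was higher and none was lower (8.33% called). Over all genes tested 3.36% were called, and 5.88% of genes averaging at least 1000 counts. At an unadjusted p under 0.05, 1 of the 12 was higher and 1 lower. PUM2, a PUMILIO protein that NORAD binds, was at 0.022 on the log2 scale (adjusted p = 0.848). CNOT1, the scaffold of the CCR4-NOT deadenylase that PUMILIO proteins recruit, rose from 14274 ± 730 to 15415 ± 96.8 normalized counts (SD, n = 3 each, log2 fold change 0.11, adjusted p = 0.0337 in the edgeR fit). Its adjusted p was 0.228 and 0.200 without DMSO replicates 1 and 3 and 0.0652 and 0.133 without Olaparib replicates 2 and 3. TOP1, which encodes topoisomerase I, showed a log2 difference of -0.095 (adjusted p = 0.0672).

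None of 7 genes beside OIP5-AS1 or binding it passed with edgeR, limma voom or DESeq2, and 1 had an unadjusted p under 0.05. This was NUSAP1, a spindle protein, with a log2 fold change of 0.10 (adjusted p = 0.0921). ELAVL1, the stabilizing RNA-binding protein HuR, had one of 0.041 (adjusted p = 0.589). In the imprinted domain of KCNQ1OT1, 9 of 14 genes could be tested, none passed with edgeR, limma voom or DESeq2, and 2 had an unadjusted p under 0.05. PHLDA2 and SLC22A18, which are imprinted genes of that cluster, had log2 fold changes of -0.18 (adjusted p = 0.124) and -0.24 (adjusted p = 0.163). CDKN1C, a cell cycle inhibitor of the same cluster, had 48.0 ± 7.31 and 47.7 ± 15.4 normalized counts (SD, n = 3 each, adjusted p = 0.989). Of 14 genes for nuclear RNA decay and 3′ end processing, none passed with any of these 3 tools and 2 had an unadjusted p under 0.05. These were PABPN1, the nuclear poly(A)-binding protein, with a log2 fold change of -0.11 (adjusted p = 0.120), and RBM7, a subunit of the nuclear exosome targeting complex, with -0.095 (adjusted p = 0.283). Of 15 genes beside the other lncRNAs, FRMD8 was the 1 that passed (6.67% called, against 3.36% of all genes tested).

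**Figure D5:**
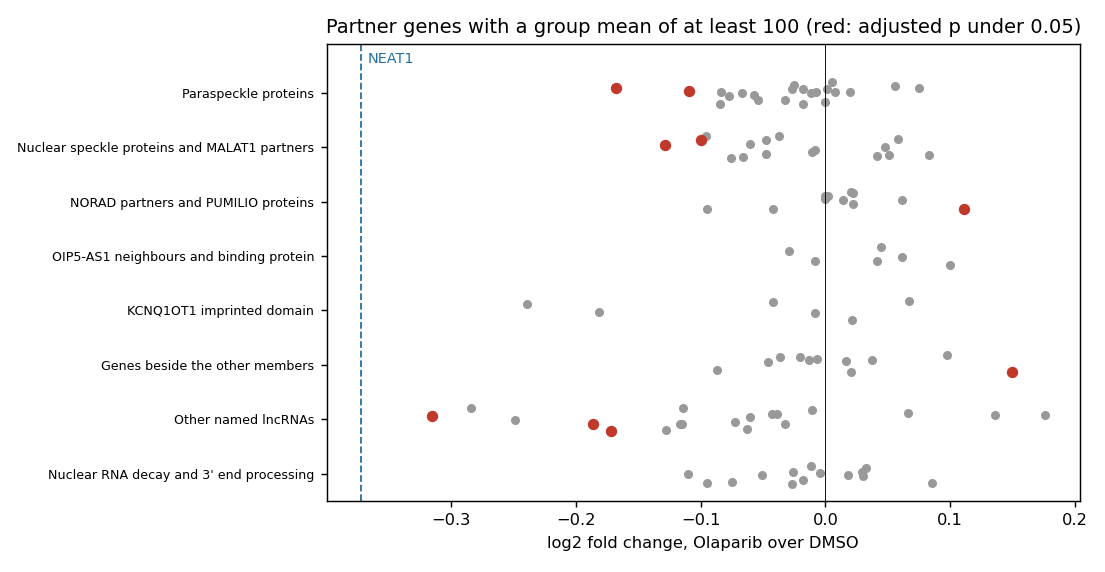
Log2 fold changes (Olaparib relative to DMSO) of the genes in each list of partners and neighbours that have a group mean of at least 100 normalized counts, with 1 point per gene, red for an adjusted p under 0.05 in edgeR, and a dashed line at the value of NEAT1. At most 3 genes of a list are called, and DANCR, at -0.32, is the lowest called gene.

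Other named lncRNAs were compared as a list. Of 29 tested out of 39 listed, 3 were lower and none was higher (10.3% called), with a median log2 fold change of -0.11 and negative values in 22. By comparison, 8.2% of lncRNA genes averaging at least 100 counts and 1.25% of all lncRNA genes tested were called. DANCR, a lncRNA first described as a block on differentiation, fell from 2496 ± 66.5 to 2006 ± 42.2 normalized counts (SD, n = 3 each, log2 fold change -0.32, SE 0.040, adjusted p = 2.97e-06 in the edgeR fit), and it passed in all 6 fits that left out 1 sample. JPX, an activator of XIST transcription, fell by 0.19 in log2 units (adjusted p = 0.0275, and 0.116 in DESeq2). MIR100HG, the host transcript of miR-100, fell by 0.17 (adjusted p = 0.0269). In edgeR JPX had an adjusted p between 0.0735 and 0.182 without DMSO replicate 1, 2 or 3 or Olaparib replicate 3, and MIR100HG between 0.0510 and 0.281 without DMSO replicate 1 or 3 or Olaparib replicate 1 or 2.

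NEAT1 and DANCR stood within a wider lean of lncRNA genes. Among the 451 lncRNA genes averaging at least 100 counts, 32 were lower (7.10%) and 5 were higher (1.11%), whereas among all genes tested 1.21% were lower and 2.15% higher. The set of all genes has no such limit on the mean count, which bears on how many can be called, so these shares are not like for like. Without that limit, 1.25% of the 3746 lncRNA genes tested were called in either direction. The median log2 fold change of the 451 lncRNA genes was -0.051, and that of all genes tested was -0.0042. In DESeq2 14 were lower and 3 higher, and when 1 sample was left out in edgeR 15 to 25 were lower and 3 to 6 higher. MALAT1, NORAD, OIP5-AS1, KCNQ1OT1, CYTOR and MIR22HG were not among the called genes, and TUG1, typed as protein coding, was not in this set.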

How the data were processed

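RNA of 3 Olaparib and 3 DMSO samples was counted. The authors trimmed reads with Trimmomatic, mapped them to GRCh38 with STAR, marked duplicates with Picard and deposited whole-number counts per gene from featureCounts, without normalization. Whether duplicates were removed, and the strand setting, are not given in the sources used here. Identifiers were matched to GENCODE release 44 (81.95% had a symbol, with 99.43% of reads). That annotation, which need not be the one used for counting, gave exon lengths, transcripts and coordinates. MicroRNA sequences came from RefSeq on GRCh38. Genes with more than 10 counts in total were scaled by TMM and tested with edgeR 4.0.16 (quasi-likelihood, Benjamini-Hochberg over all genes) in R 4.3.3. limma 3.58.1 voom and DESeq2 1.42.0 were alternatives. The test was also run on simulated counts, with the shrunken spreads of edgeR and changes larger than that of NEAT1. That run cannot check smaller changes or a gene with an outlying spread. The labels give separate dishes as replicates. The members and lists were chosen with earlier results of these data known. The named genes were the 8, up to 4 called genes per list or the 2 with the lowest p, overlapping or near-copy genes, and the 2 most correlated genes per lncRNA. NONO, SFPQ, PSPC1, PUM2, ELAVL1, CDKN1C, TOP1 and the genes around MIR22HG were named in addition, and 1 listed gene, not past the test, is not reported here. The window of 250 kb, the mean count of 100, the ratios and the shared words were added after seeing the data.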

Additional observations from a re-analysis of the deposited data

How the results depend on the processing

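Across 16 alternatives each, the fold changes of TUG1 and CYTOR kept their direction and stayed outside the threshold, and NEAT1 kept its direction. With robust dispersion in edgeR, NEAT1 had a log2 fold change of -0.37 with an adjusted p of 0.224, so 0 of the 8 passed, although 2 had an unadjusted p under 0.05, and DESeq2 and limma voom called 1. By construction this setting gives a gene with an outlying spread less shrinkage. NEAT1 passed in the other 15, with adjusted p of at most 0.0236 (DESeq2), and of 5.25e-08 to 0.000287 with 1 sample left out. With 1 sample left out, the count of the 8 past the test was 1 to 2, NEAT1 lay between -0.46 and -0.27, and MIR22HG between -0.20 and -0.11. Directions turned when a sample was left out for MALAT1 (-0.037 to 0.078), NORAD (-0.086 to 0.0019), OIP5-AS1 (-0.078 to 0.0095) and KCNQ1OT1 (-0.0055 to 0.11), and MALAT1 was at -0.0039 under upper quartile scaling. None of these values passed the test, and the cause was not tested.

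Deviations of same-numbered samples from their group means correlated over 11997 genes at -0.204, 0.263 and -0.319. The highest value was 0.484, between DMSO replicate 1 and Olaparib replicate 3. Such values cannot show whether samples were handled in pairs. With a replicate block, 2 of the 8 passed, MIR22HG having a log2 fold change of -0.16 with an adjusted p of 0.0185, and 1322 genes passed in all against 730. Over all genes 389 to 864 passed when a sample was left out. The block gave 4, 4, 2, 1, 1, 1, 1 and 5 calls in the lists for paraspeckles, speckles, NORAD, OIP5-AS1, the KCNQ1OT1 domain, RNA decay, genes beside the other lncRNAs and other named lncRNAs, against 2, 2, 1, 0, 0, 0, 1 and 3. Leaving out a sample gave 0 to 3, 0 to 2, 0 to 1, 0, 0 to 1, 0, 0 to 1 and 1 to 3, the call in the KCNQ1OT1 domain being without Olaparib replicate 3.

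Without a length, MIR22HG ranked 6 and OIP5-AS1 5 by level. With the longest transcript as the length, chosen after seeing the data, NEAT1 ranked 4 and TUG1 3. Depth limits KCNQ1 and WT1, with 5 and 8 counts in total. Poly(A) selection, duplicates and strand could act on the levels of MALAT1 and NEAT1, and their part was not tested.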
